A study of Mus musculus with 6 samples.

Results

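Semaphorins, ephrins, Slits and netrins are families of secreted or membrane-bound cues that steer growing axons and migrating cells, and they are read by plexins and neuropilins, Eph receptors, Robo receptors and Unc5 receptors. The genes described here were chosen by symbol, with earlier results of these data known. They are those of these ligand and receptor families with a probe on an Illumina MouseWG-6 v2.0 array. There were 65 such genes of 19057 named on the array, measured by 166 probes. The samples were 3 pools of sorted satellite cells, the stem cells of skeletal muscle, from pharyngeal muscle. They were set against 3 pools from limb muscle, the gastrocnemius and quadriceps. All mice were male C57BL/6 mice aged 8 to 10 weeks, untreated as far as the labels say, and a pool consisted of 150000 to 200000 cells of 10 to 30 mice. The labels name no sorting marker and do not say how the pools relate to one another, so that p-values measure only the spread between these pools.

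In development such cues guide motor and sensory axons to muscle, and several also guide migrating muscle precursors. Semaphorins bind plexins, with the secreted class 3 members doing so mostly through a neuropilin coreceptor. Ephrins and Eph receptors are both held on cell membranes and signal where cells touch. Slits bind Robo receptors, and netrins bind Dcc, neogenin and Unc5 receptors. Satellite cells move along muscle fibres and take part in repair of both the fibre and its nerve contact, and in this setting semaphorins, ephrins and Eph receptors have been studied.

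The detection p-value gives the fraction of negative controls that outshine a probe. It was under 0.05 (called above background from here on) for 20919 to 22793 probes on the pharyngeal arrays and for 22045 to 22241 probes on the limb arrays. The satellite cell identity of the pools was checked against 15 markers, and all 15 passed the filter on dim probes, Pax7 among them on all 6 arrays, and 7 of the 15 were lower in pharyngeal pools and none higher. Their summed normalized intensity was 4256 to 4664 in pharyngeal pools and 7158 to 9983 in limb pools. Markers of epithelium ran the other way, with sums of 2818 to 9640 in pharyngeal pools and 553.7 to 704.2 in limb pools over 16 of 20 listed markers, and 7 of these 16 were higher past the threshold (adjusted p under 0.05) and none lower. Of the 16, Krt13, Krt15, Krt7 and Epcam were above background on no limb array and met the filter through the pharyngeal arrays alone. Krt13 and Krt15 are among the 7 called, and their calls are no more than a description. Of 9 tenocyte markers tested, 5 were lower and 1 was higher, with sums of 1571 to 1810 in pharyngeal pools and 2343 to 4487 in limb pools. Of 4 thyroid and parathyroid markers tested, 3 were higher (sums of 1180 to 3282 in pharyngeal pools and 78.12 to 80.08 in limb pools). All 4 were above background on no limb array, so that they met the filter through the pharyngeal arrays alone. Their calls are likewise a description. Of 6 macrophage and myeloid markers tested, 1 was higher (sums of 721.3 to 1621 in pharyngeal pools and 210.8 to 386.6 in limb pools), while Ptprc and Cd68 did not pass the filter. The higher marker, S100a9, was above background on no limb array and also met the filter through the pharyngeal arrays alone. None of 9 fibro-adipogenic or 10 pericyte and smooth muscle markers passed. Of 12 endothelial markers none passed, with sums of 1171 to 1567 in pharyngeal pools and 1354 to 1548 in limb pools. The brightest, Esam, weighs most in these sums (difference of 0.34). Of the 12, 9 had negative and 3 had positive differences. The groups did not overlap for 25% of them, against 26.7% of all genes: Tek (-1.76) and Vwf (-1.12) were lower and Eng (0.31) was higher. Of 7 glial and neuronal markers none passed, with sums of 742.4 to 1079 in pharyngeal pools and 821.6 to 1108 in limb pools. What part these other cells had in the values that follow was not tested, and fewer cells of a type and less RNA per cell cannot be told apart in such pools. Correlations across genes were 0.886 to 0.915 between pharyngeal pools and 0.959 to 0.968 between limb pools.

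Of the 65 genes, 47 had a probe above background on at least 3 of the 6 arrays and were tested, and 31 of these had their probe above background on all 6 arrays. The tested genes were 14 of 19 semaphorins, both neuropilins, 8 of 9 plexins, 2 of 5 ephrin-A genes, all 3 ephrin-B genes, 6 of 9 EphA and 3 of 4 EphB receptors, all 3 Slits, all 3 Robo receptors and all 3 netrins on the array. The untested genes were Sema3d, Sema3e, Sema4c, Sema4g, Sema6c, Plxna1, Efna2, Efna3, Efna4, Epha6, Epha8, Epha10, Ephb3, Unc5a, Unc5b, Unc5c, Unc5cl and Unc5d. None of their probes was above background on more than 2 arrays, which limits what the array could show and does not show that the genes were silent. All 5 genes with an Unc5 symbol were in this set, and Unc5cl, which the symbol rule takes in, is not a netrin receptor but a relative that acts in inflammatory signalling.

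The comparison asked whether guidance genes differ between satellite cells of pharyngeal and limb muscle. By each gene's brightest probe, 1 of the 47 genes passed the threshold, Robo1, which was lower in the pharyngeal pools, and none was higher (limma, Benjamini-Hochberg adjusted over 11262 genes). Over all genes tested 3.32% passed, and 2.13% of the guidance genes did, so that the count was near the background. At an unadjusted p under 0.05 there were 11 guidance genes (23.4%, against 20.3% of all genes). The groups did not overlap for 17 of the 47 genes, 9 higher and 8 lower, which is 36.2% against 26.7% of all genes tested. The median difference, pharyngeal minus limb on the log2 scale, was 0.15 for the guidance genes and -0.06 for all genes. A gene detected in 1 group alone could pass the filter, so these counts describe the genes measured and not all 65. A second gene, Sema6a, was lower by 3 of the 4 probes detected in both groups, although its brightest probe did not pass.

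**Figure D1:**
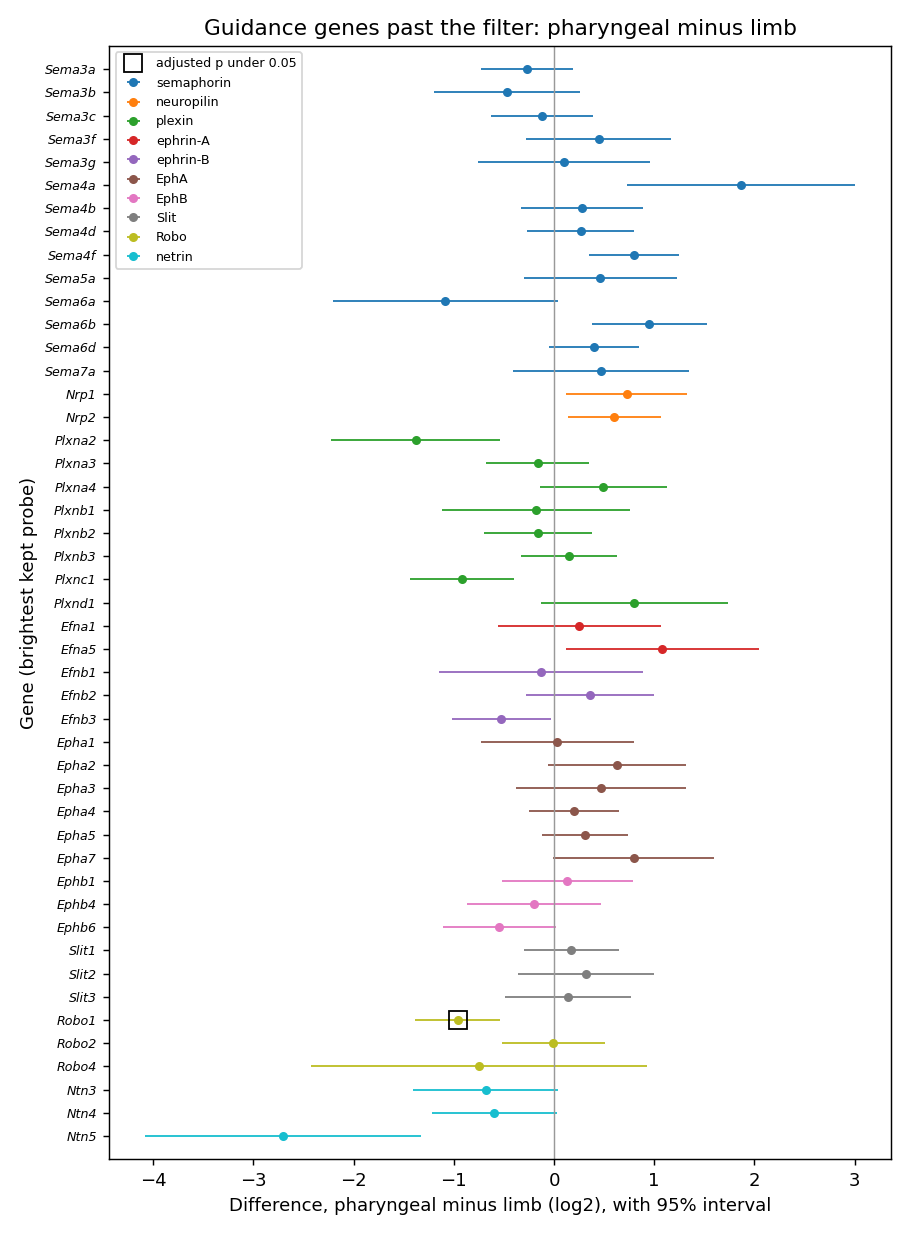
Difference between pharyngeal and limb pools (log2, pharyngeal minus limb) for the 47 guidance genes tested, with 95% intervals of the moderated fit, grouped by family from semaphorins at the top to netrins at the bottom. Robo1, boxed at -0.96, was the only gene past the threshold by its brightest probe, and Ntn5 had the largest difference in size (-2.70) with a wide interval.

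**Figure D2:**
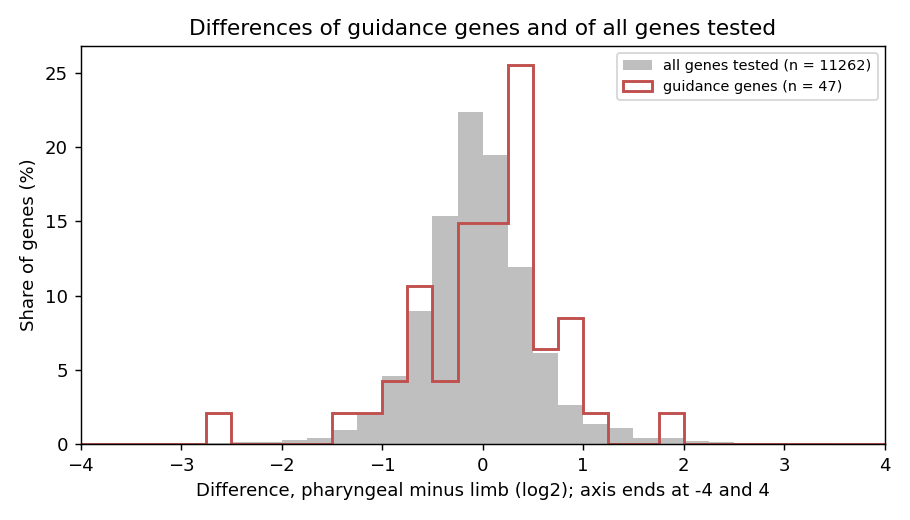
Share of genes (%) by difference between pharyngeal and limb pools (log2) for the 47 guidance genes (red outline) and all 11262 genes tested (grey). Both distributions centre near 0, with medians of 0.15 for the guidance genes and -0.06 for all genes.

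Sequence upstream of the start of the 2 genes with the smallest adjusted p by their brightest probe is shown because both had lower values in every pharyngeal pool than in any limb pool. E-boxes are marked as the motif that myogenic transcription factors are known to bind. RefSeq promoter windows of the GRCm38.p6 assembly were found for 57 of the 65 genes. The 250 bases before the start are printed 5′ to 3′ on the gene's strand, with each E-box (CANNTG, which reads the same on both strands) in capitals. The windows are chr16:72662899-72663148 on the plus strand for Robo1 and chr7:45683772-45684021 on the plus strand for Ntn5.
Robo1: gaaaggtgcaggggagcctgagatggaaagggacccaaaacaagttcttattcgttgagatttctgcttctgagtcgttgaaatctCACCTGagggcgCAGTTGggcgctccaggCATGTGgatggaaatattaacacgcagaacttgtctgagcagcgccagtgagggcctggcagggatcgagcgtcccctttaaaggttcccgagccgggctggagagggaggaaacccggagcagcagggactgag
Ntn5: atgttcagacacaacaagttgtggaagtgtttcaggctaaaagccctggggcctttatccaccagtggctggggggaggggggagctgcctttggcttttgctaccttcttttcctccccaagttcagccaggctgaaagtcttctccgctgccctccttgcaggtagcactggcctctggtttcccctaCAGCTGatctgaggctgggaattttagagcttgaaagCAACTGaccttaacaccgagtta
The Robo1 window held 3 E-boxes and the Ntn5 window 2, of which 1 had the form CAGCTG. Over 32851 windows of the same length, 66.2% held an E-box and 13% held one of the form CAGCTG. A match is a description of the letters and shows no binding.

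Among the receptors, Robo1, a transmembrane receptor for Slits that repels axons and migrating cells, read 7.14, 7.38 and 7.27 (log2 normalized intensity) in the 3 pharyngeal pools and 8.32, 8.16 and 8.19 in the 3 limb pools. The groups did not overlap, and all 6 arrays were above background. The difference was -0.96 (SE 0.18, adjusted p = 0.0373), or 1.94-fold lower in pharyngeal pools, with a 95% interval of -1.38 to -0.53. Robo1 did not pass in any of the 6 fits without 1 pool, with an adjusted p of 0.0553 to 0.173 and a difference between -1.02 and -0.90, nor as the mean of its 2 kept probes (-0.83, adjusted p = 0.0686), a summary chosen after the data were seen and by which 4.27% of all genes passed. It passed in 9 of 17 alternatives. The second probe, ILMN_2421958, overlapped between groups, with 7.96, 7.19 and 6.67 in pharyngeal pools and 8.20, 7.88 and 7.88 in limb pools. Its difference of -0.71 had the same sign (adjusted p = 0.297 in the fit of single probes).

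The other Robo receptors did not differ beyond the spread of the pools. Robo2 was above background on 2 pharyngeal arrays and 1 limb array, with a difference of -0.01 (95% interval -0.52 to 0.51). Robo4, an endothelial member of the family, read 4.21, 4.57 and 6.90 in pharyngeal pools and 6.86, 5.52 and 5.55 in limb pools. Pharyngeal pool 3 stood at the level of limb pool 1, and the other pharyngeal pools lay below all limb pools. The 3 Slit ligands, secreted proteins, differed by 0.14 to 0.32, and none passed. Slit3 read 7.04, 7.84 and 7.30 in pharyngeal pools and 7.56, 7.10 and 7.11 in limb pools, with overlapping groups (0.14, 95% interval -0.49 to 0.76). The second Slit2 probe, ILMN_1253797, was higher in every pharyngeal pool (5.11, 5.82 and 5.60) than in any limb pool (4.41, 4.55 and 4.30), and it was above background on no limb array. The pharyngeal level exceeded the limb level at least 1.89-fold, in a probe that met the filter through its high group alone (adjusted p = 0.062).

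Netrins are laminin-related secreted cues. The 3 named on the array, Ntn3, Ntn4 and Ntn5, all had negative differences, and Ntn1 was not among the genes measured. Ntn5 read 7.65, 5.23 and 7.38 in pharyngeal pools and 9.30, 9.55 and 9.53 in limb pools. All limb pools lay above all pharyngeal pools, and pharyngeal pool 2 was lower than pools 1 and 3. The difference of -2.70 (SE 0.59, adjusted p = 0.0563, 95% interval -4.08 to -1.32) was the largest in size among the 47 genes and narrowly missed the threshold. Without pharyngeal pool 1 or 2 it passed (-3.14, adjusted p = 0.0379, and -1.96, adjusted p = 0.0139), and over 17 alternatives it passed in 8, with an adjusted p of 0.0139 to 0.206. Ntn4, a netrin of basement membranes, read 7.35, 6.40 and 6.88 in pharyngeal pools and 7.58, 7.43 and 7.42 in limb pools. Its groups did not overlap, and the difference of -0.60 did not pass (adjusted p = 0.264). A second Ntn4 probe, ILMN_2959863, also did not overlap and had a difference of -1.21 (adjusted p = 0.174). Ntn3 was above background on 1 pharyngeal array and all 3 limb arrays (-0.68, adjusted p = 0.272).

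Sema6a, a transmembrane semaphorin that binds class A plexins, was measured by 5 probes past the filter. By the brightest, ILMN_1214701, it read 6.78, 4.90 and 5.25 in pharyngeal pools and 7.09, 6.71 and 6.40 in limb pools. Pharyngeal pool 1 lay within the limb range there, and the difference of -1.09 did not pass (SE 0.48, adjusted p = 0.260). On the 4 other probes the groups did not overlap. ILMN_2705946 read 4.83, 5.75 and 5.41 in pharyngeal pools and 7.02, 6.78 and 7.16 in limb pools, and was above background on all 6 arrays. ILMN_1215472 read 4.62, 5.27 and 5.55 in pharyngeal pools and 6.55, 6.64 and 6.98 in limb pools. Pharyngeal pool 1 was above background on ILMN_2705946 and ILMN_1214701 and not on the other probes.

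With every kept probe tested by itself, where 2.58% of probes passed, 3 of the 4 probes detected in both groups passed. Their differences were -1.66 (adjusted p = 0.0246) for ILMN_2705946, -1.58 (adjusted p = 0.0322) for ILMN_1215472 and -1.51 (adjusted p = 0.0291) for ILMN_2462284, which was above background on 1 pharyngeal array and 3 limb arrays. ILMN_2577965 was detected on all 3 limb arrays and on none of the pharyngeal arrays, so that it met the filter through its high group alone and its values are a description. It was at least 3.58-fold lower in pharyngeal pools (adjusted p = 0.00384). The bound sets the limb mean against, on each pharyngeal array, the higher of the probe's own value and the lowest value above background.

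Sema6a was also summarised as the mean of the 4 probes detected in both groups, a rule chosen after the data were seen and under which 3.34% of genes passed. It differed by -1.46 (SE 0.17, adjusted p = 0.00648). This mean passed in 5 of 6 fits without 1 pool, with a difference of -1.49 to -1.41, and did not pass without limb pool 3 (adjusted p = 0.0545). Taken singly without 1 pool, ILMN_2705946 and ILMN_1215472 passed in 2 of 6 fits and ILMN_2462284 in 1 of 6.

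**Figure D3:**
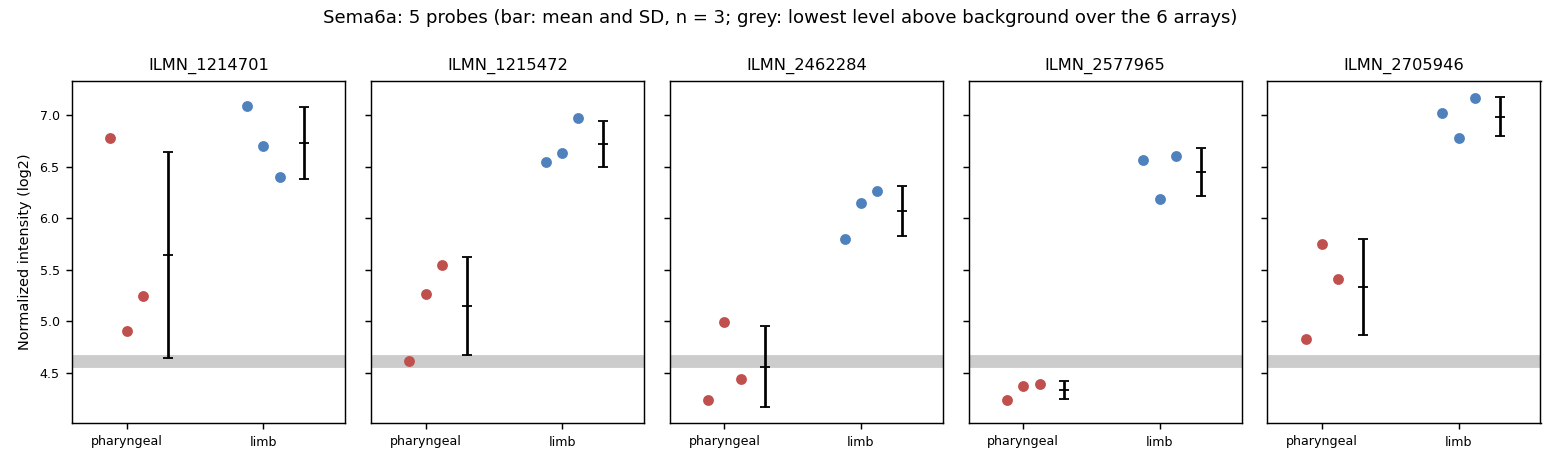
Normalized intensity (log2) of the 5 Sema6a probes in 3 pharyngeal pools (red, left) and 3 limb pools (blue, right), with mean and SD; the grey band spans the lowest level above background on the 6 arrays. On 4 probes all pharyngeal pools lie below all limb pools, with those of ILMN_2577965 below the background level, and on ILMN_1214701 pharyngeal pool 1 reads 6.78, within the limb range.

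Of the 14 semaphorins tested, Sema6a included, 10 had positive and 4 had negative differences, and none passed by its brightest probe. Positive differences made up 59.6% of the 47 guidance genes and 44.5% of all genes tested. Sema4a, a membrane semaphorin best known in immune cells, read 7.85, 5.93 and 7.26 in pharyngeal pools and 5.41, 5.38 and 4.65 in limb pools. The groups did not overlap, and the difference of 1.87 (SE 0.49, adjusted p = 0.0895, 95% interval 0.73 to 3.0) passed only without pharyngeal pool 2 (2.38, adjusted p = 0.0236), the lowest pharyngeal pool, among the fits without 1 pool. Sema4f read 6.17, 6.29 and 6.18 in pharyngeal pools and 5.23, 5.63 and 5.38 in limb pools. These pools were tightly grouped and did not overlap (0.80, SE 0.19, adjusted p = 0.0734). Sema6b, which like Sema6a binds class A plexins, read 6.52, 6.64 and 5.91 in pharyngeal pools and 5.45, 5.25 and 5.52 in limb pools. Its difference of 0.95 did not pass (adjusted p = 0.0892), except without pharyngeal pool 3 (1.19, adjusted p = 0.0403), and its second probe, ILMN_2623920, had a difference of 0.03. Sema6d, a further class 6 member, read 9.98, 9.95 and 9.73 in pharyngeal pools and 9.60, 9.57 and 9.29 in limb pools. The groups did not overlap, although the difference of 0.40 was small (adjusted p = 0.304), and all 5 Sema6d probes had positive differences, from 0.17 to 0.79.

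The remaining semaphorins overlapped between groups or differed little. Among the secreted class 3 genes, Sema3a (-0.27), Sema3b (-0.47), Sema3c (-0.12), Sema3f (0.44) and Sema3g (0.10) did not pass. Sema3a, a repellent of motor and sensory axons, was above background on 2 pharyngeal and 3 limb arrays, with 4.57, 4.69 and 4.65 in pharyngeal pools and 4.88, 5.14 and 4.70 in limb pools. The groups lay just apart, close to background, and the 95% interval of the difference was -0.73 to 0.19. The 2 Sema3c probes went opposite ways, with -0.12 for the brighter and 1.12 for ILMN_1238568 (adjusted p = 0.22), and both overlapped. Sema4b (0.28), Sema4d (0.27), Sema5a (0.46) and Sema7a (0.47) also did not pass.

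Both neuropilins, the coreceptors of class 3 semaphorins that also bind VEGF, were by their brightest probes higher in every pharyngeal pool than in any limb pool. Neither passed the threshold. Nrp1 read 9.24, 9.93 and 9.12 in pharyngeal pools and 8.79, 8.77 and 8.57 in limb pools (0.72, SE 0.26, adjusted p = 0.180). All 3 Nrp1 probes had groups that did not overlap, with differences of 0.58 to 1.50. Nrp2 read 6.66, 7.01 and 7.01 in pharyngeal pools and 6.32, 6.16 and 6.40 in limb pools (0.60, SE 0.20, adjusted p = 0.152). Its 4 kept probes all had positive differences, but the groups overlapped on ILMN_2730813 (0.33) and ILMN_3136656 (0.39).

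Plexins, the signalling receptors of semaphorins, showed 3 positive and 5 negative differences, none past the threshold. Plxna2, a receptor of class 6 semaphorins including Sema6a, read 6.28, 5.34 and 6.79 in pharyngeal pools and 7.40, 7.45 and 7.69 in limb pools. The groups did not overlap on this probe or on the second, ILMN_2482866 (-0.89), and the difference of -1.38 missed the threshold (SE 0.36, adjusted p = 0.0901). It passed without pharyngeal pool 3 (-1.72, adjusted p = 0.0464). Plxnc1, the receptor of Sema7a, was above background on 1 pharyngeal array and all limb arrays, with 4.35, 4.71 and 4.38 in pharyngeal pools and 5.62, 5.48 and 5.09 in limb pools. The groups did not overlap (-0.92, SE 0.22, adjusted p = 0.0746), but did on the second probe, ILMN_2756855 (-0.19). Plxnd1, a receptor of Sema3e, read 10.04, 9.05 and 8.37 in pharyngeal pools and 8.20, 8.30 and 8.55 in limb pools. Pharyngeal pool 3 lay within the limb range (0.80, adjusted p = 0.314), and the other 2 Plxnd1 probes had differences of 0.18 and 0.21. Plxna3, Plxna4, Plxnb1, Plxnb2 and Plxnb3 lay between -0.18 and 0.49.

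**Figure D4:**
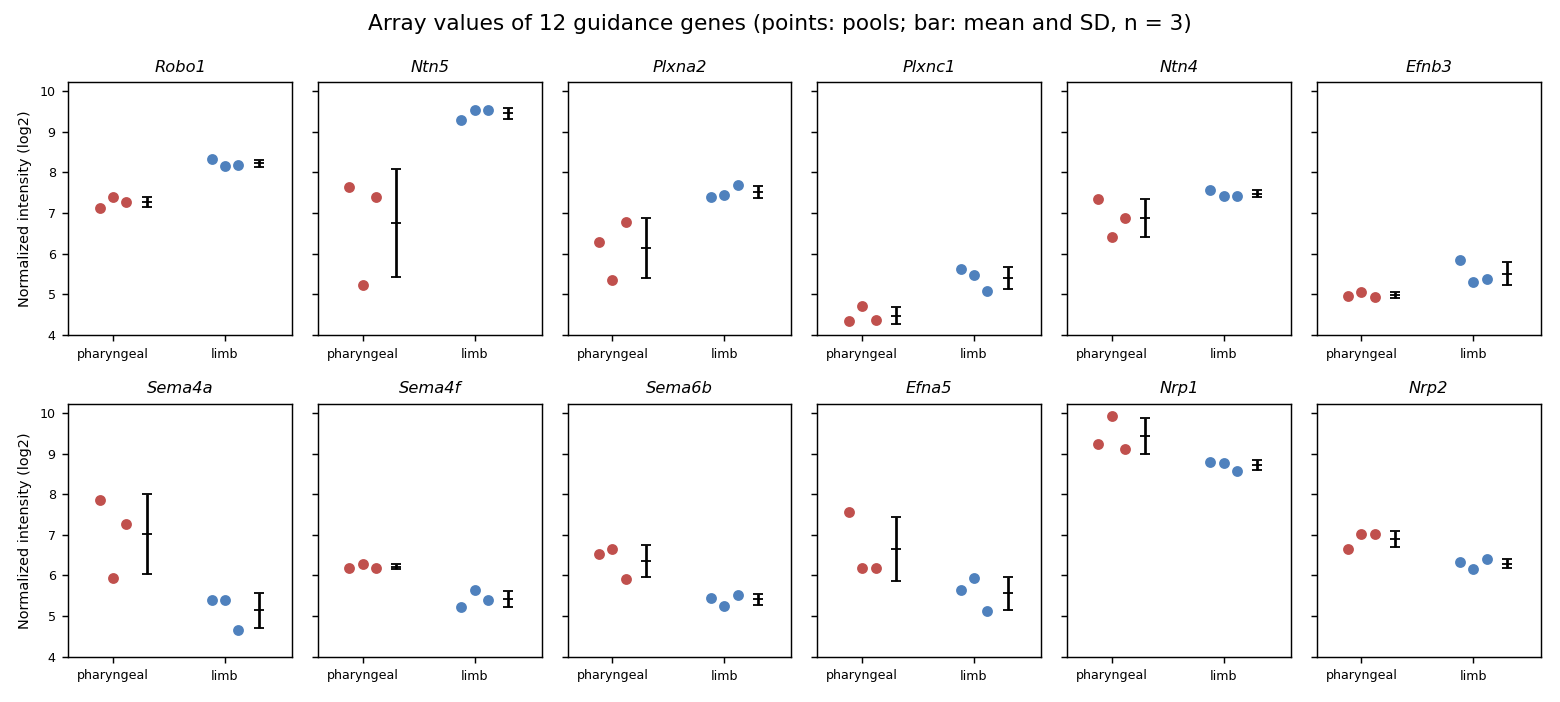
Normalized intensity (log2) of 12 guidance genes in 3 pharyngeal pools (red, left in each panel) and 3 limb pools (blue, right), with mean and SD (n = 3). The 12 were taken from the guidance genes whose groups do not overlap. Such genes make up 36.2% of the guidance genes tested, against 26.7% of all genes tested. The upper row (Robo1 to Efnb3) is lower and the lower row (Sema4a to Nrp2) higher in pharyngeal pools. Only Robo1 passed the threshold.

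Ephrins and their receptors, which act in cell sorting and in matching nerves to muscles, did not differ past the threshold in any of the 14 genes tested. Efna5, a ligand anchored to the membrane by a lipid, read 7.56, 6.19 and 6.18 in pharyngeal pools and 5.64, 5.93 and 5.12 in limb pools. Pharyngeal pool 1 stood above the others (1.08, SE 0.41, adjusted p = 0.206), and the second Efna5 probe, ILMN_2662536, had a difference of -0.29, of opposite sign. Efna1 had a difference of 0.25. Of the transmembrane ephrin-B ligands, Efnb3 read 4.95, 5.06 and 4.93 in pharyngeal pools and 5.83, 5.31 and 5.37 in limb pools, without overlap (-0.53, adjusted p = 0.223). Efnb2 read 6.50, 5.86 and 6.80 in pharyngeal pools and 6.06, 6.14 and 5.88 in limb pools, with overlap (0.36, 95% interval -0.28 to 0.99). Efnb1 had a difference of -0.13.

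All 6 EphA receptors tested had differences at or above 0 (0.03 to 0.79), and none passed. Epha3 had 4 kept probes, of which 3 did not overlap between the groups. Of these 3, both ILMN_2515704 and ILMN_2831656 (0.74, adjusted p = 0.0926 in the fit of single probes) were above background on no limb array. Both could only come out higher, so that their lack of overlap is a description. One of these, ILMN_2515704, read 5.72, 5.24 and 4.95 in pharyngeal pools and 4.22, 4.33 and 4.22 in limb pools. No limb array was above background, so that the probe met the filter through its high group alone, and the pharyngeal level exceeded the limb level at least 1.64-fold (adjusted p = 0.0717). The brightest Epha3 probe overlapped (0.47, adjusted p = 0.528). Epha5 read 4.80, 4.79 and 4.61 in pharyngeal pools and 4.34, 4.57 and 4.37 in limb pools. Only pharyngeal arrays, all 3 of them, were above background for it, so that it too met the filter through its high group. The bound on the observed means was 1.10-fold, close to background. The 95% interval of the difference was -0.12 to 0.74 and included 0 (adjusted p = 0.397). Its other probes were above background on no array. Epha7 read 5.47, 5.71 and 5.55 in pharyngeal pools and 5.57, 4.50 and 4.28 in limb pools. Limb pool 1 lay among the pharyngeal pools (0.79, adjusted p = 0.25), and another Epha7 probe, ILMN_1228560, had the opposite sign (-0.17). Epha2, a receptor abundant in epithelium, had a difference of 0.63 (adjusted p = 0.289) without overlap. Epha1 read 6.15, 5.27 and 6.48 in pharyngeal pools and 5.96, 6.11 and 5.72 in limb pools, with overlap (0.03). Epha4, which limits nerve growth into limb muscle territories in development, had a difference of 0.20 (95% interval -0.25 to 0.65).

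Among EphB receptors, Ephb4, the receptor of Efnb2 known from veins, read 8.40, 7.56 and 8.00 in pharyngeal pools and 8.57, 7.93 and 8.04 in limb pools. The groups overlapped, and the 95% interval of the difference was -0.87 to 0.47. Ephb6, a receptor without kinase activity, was above background on 1 pharyngeal and 3 limb arrays and did not overlap (-0.55, adjusted p = 0.259). Ephb1 had a difference of 0.13 by its brightest probe, with overlap. Its second kept probe, ILMN_2559390, did not overlap and had a difference of 0.72 (adjusted p = 0.193 in the fit of single probes). Of the 23 guidance genes with more than 1 kept probe, 3 had probes of opposite sign, namely Efna5, Epha7 and Sema3c.

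Genes that act with these cues outside the symbol rule were taken from a list of 87 coreceptors and signalling proteins, of which 65 were tested. Of these, 2 were higher and 2 were lower in pharyngeal pools. That is 6.15%, against 3.32% over all genes (1.71% higher and 1.61% lower). The list was chosen with earlier results of these data known, so that this share is a description and no test of the list. The lower count includes Ntng1, which met the filter through the limb arrays alone and could only come out lower. The median difference was -0.02. Abl2, a tyrosine kinase of the cytoskeleton that acts below several guidance receptors, read 6.25, 6.71 and 5.88 in pharyngeal pools and 4.79, 4.41 and 4.61 in limb pools. It was above background on 3 pharyngeal arrays and 2 limb arrays, so that its limb level lay near background. The difference of Abl2 was 1.68 (SE 0.26, adjusted p = 0.0178). Micall2, a relative of the Mical enzymes that act below plexins, read 7.63, 7.21 and 7.01 in pharyngeal pools and 5.95, 5.83 and 5.91 in limb pools, and rose by 1.38 (SE 0.22, adjusted p = 0.0193). Both separated the groups without overlap, and both lost the call when any limb pool was left out, with an adjusted p of up to 0.110 for Abl2 and 0.117 for Micall2.

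The 2 lower genes were Ntng1 and Rgmb. Ntng1 encodes netrin-G1, a membrane-anchored relative of netrins, and was detected on all 3 limb arrays and on none of the pharyngeal arrays. It read 4.50, 4.39 and 4.49 in pharyngeal pools and 5.82, 5.77 and 5.65 in limb pools, at least 2.20-fold lower in pharyngeal pools (adjusted p = 0.0117). It met the filter through the limb arrays alone, so that its call is no more than a description. Rgmb, a ligand of neogenin and BMP coreceptor, read 7.09, 7.53 and 6.77 in pharyngeal pools and 8.36, 8.35 and 8.49 in limb pools, a fall of 1.27 on the log2 scale without overlap (SE 0.24, adjusted p = 0.0345). Without limb pool 1, 2 or 3 the Ntng1 probe given above no longer met the filter, and another Ntng1 probe took its place and did not pass (highest adjusted p = 0.263). Rgmb kept its call when pharyngeal pool 2 was left out and lost it when any other pool was (highest adjusted p = 0.171). Neo1, which encodes the receptor neogenin, read 6.59, 6.30 and 6.29 in pharyngeal pools and 6.89, 7.39 and 7.05 in limb pools. Its groups did not overlap, and it did not pass (-0.71, adjusted p = 0.122). Dcc, the classical netrin receptor, had no probe past the filter.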

How the data were processed

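RNA from 3 pools of pharyngeal and 3 pools of limb satellite cells was amplified and hybridised to Illumina MouseWG-6 v2.0 arrays, all 6 on 1 chip, with chip position and group not separable. The deposited table holds unnormalized probe intensity, and beside each intensity its detection p-value. A second deposited table holds intensity that the authors had processed with GenomeStudio 2011.1, per the submitters' processing notes, and it served as an alternative.

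In R 4.3.3 with limma 3.58.1, background was modelled by normexp from the detection p-values (offset 16), intensities were quantile normalized and log2 was taken. Of 45281 probes, 34885 had 1 gene symbol in the platform annotation, 18 had several and 10378 none, and probes with several or none were not named. Probes whose detection p was below 0.05 on 3 or more of the 6 arrays were kept (22633 probes). Where a gene had several kept probes (4754 of 11262 genes), the one with the highest mean stood for it. Group differences, pharyngeal minus limb, were tested with lmFit and eBayes and Benjamini-Hochberg adjustment over all 11262 genes, at a threshold of 0.05. The fit and adjustment were tested on simulated log2 values, with equal spread in both groups. Background correction, normalization, the filter and the choice of probe were not part of that test.

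Members, gene lists and marker lists were chosen with earlier results of these data known. Values on every array were to be given for members past the threshold, detected in 1 group alone, or not overlapping with a difference of at least 1, and for the brightest member of each family. Values of further members were added after they were seen. Alternatives covered background, normalization, filter, probe rule, variance model, array weights, replicate number and leaving out each array. The number of arrays limits the precision. Deviations of same-numbered pools were not correlated (-0.01, -0.013 and 0). These correlations cannot show whether same-numbered pools shared mice or a sorting day, so that pairing is not known.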

Additional observations from a re-analysis of the deposited data

How the results depend on the processing

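With each gene's brightest probe, 193 genes were higher and 181 lower over all genes, and 1 guidance gene was lower and 0 higher. Of the signalling genes 2 were higher and 2 lower, Ntng1 included. The lower guidance count was 2 without background correction, with an offset of 50, in the authors' processed table, with probes above background on all 6 arrays, with every kept probe tested, with a variance trend, with array weights and with the mean of kept probes. It was 0 with median scaling. Over all genes 322 were higher with a variance trend, and median scaling gave 211 higher and 123 lower. The higher signalling count was 1 with probes above background on all 6 arrays. The lower signalling count was 4 without background correction, with an offset of 50 and in the processed table, and 1 with median scaling and with no filter. With the replicate number as a block, 74 genes were higher and 65 lower, and the guidance (lower) and signalling (both directions) counts were 0. Whether the numbers pair the samples is not known.

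Leaving out 1 array gave 31 to 148 higher and 27 to 212 lower genes, 0 to 1 higher and 0 to 2 lower guidance genes, and 0 to 3 signalling genes in each direction. The same ranges for the mean of kept probes, chosen after seeing the data, were 46 to 182, 29 to 255, 0 to 1, 1 to 3 and 0 to 3. For that mean over all genes, 91 were higher without limb pool 1, and 49 were higher and 36 lower without limb pool 2. By the brightest probe, no guidance gene passed without limb pool 1, 2 or 3, where the smallest adjusted p among them was 0.146, 0.164 and 0.158. Of 494 recomputed differences of 21 named genes, 408 kept direction and side of the threshold, 47 lost the call, 24 gained it, 15 changed sign with no call and 0 called values reversed. Most of the 21 had no call to lose. The lost calls were those of Robo1, Abl2, Micall2, Ntng1 and Rgmb. By the brightest probe these passed in 9 of 17, 12 of 16, 13 of 17, 12 of 16 and 9 of 17 alternatives. The cause of these shifts was not tested. Many guidance probes lay near background, where small differences could not be measured.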
